A study of Homo sapiens with 32 samples.

Results

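The transcripts described here come from 10 human genes that encode the machinery cutting and polyadenylating pre-mRNA. They are CPSF1, CPSF2, CPSF6, CPSF7, NUDT21, CSTF1, CSTF2, CSTF3, PCF11 and PABPN1, chosen by name out of 19516 protein-coding genes. Every tag on the gene's strand between the start and end of the gene in hg19 was counted. A tag is 1 cDNA, placed at the base inferred to have been crosslinked to protein by UV light. The study mapped such bases by iCLIP for FLAG-tagged Alyref, Chtop and Nxf1, with cells carrying an empty FLAG construct as Control, in 3 libraries per group. All were HEK293T FlpIn cells, a human embryonic kidney line in which each construct is integrated at a defined site as a stable line. Tetracycline was added over 48 h to induce the tagged proteins. The Nxf1 line received 5 ng/mL, the Alyref and Chtop lines received 10 ng/mL, and the labels give no dose for Control. Every library was precipitated with the same anti-FLAG antibody. Nothing in the labels says whether the replicates were separate cultures, so the p-values measure the spread between these libraries.

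Alyref and Chtop are adaptors that load the export receptor Nxf1 onto mRNA. The 3′ end of nearly every mRNA is made by CPSF, which recognises the AAUAAA signal and cleaves the RNA, by CSTF, which binds GU-rich RNA past the cut, by cleavage factor Im, which binds UGUA upstream, and by PCF11, which also helps RNA polymerase II to terminate. PABPN1 then coats the growing poly(A) tail. Several of these genes are known to control their own output through an intron, PCF11 and CSTF3 by polyadenylation inside intron 1 and intron 3, and PABPN1 by keeping its last intron. The comparisons ask how the transcripts of this machinery were occupied by export factors.

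The 10 genes held 1386 Alyref, 991 Chtop, 217 Nxf1 and 78 Control tags. They took 0.104% ± 0.00276 (SD, n = 3) of an Alyref library, 0.101% ± 0.00724 of a Chtop library, 0.0814% ± 0.0205 of an Nxf1 library and 0.0923% ± 0.0269 of a Control library. Every Alyref library was above every Nxf1 library, and the other pairs of groups overlapped. Libraries held between 7017 and 631704 tags, and replicate 1 was the shallowest of each group. A count of 0 tags therefore allows up to 428 CPM (tags scaled to the library total) in Control 1 but 4.75 in Alyref 2. These limits, and the Wilson 95% intervals below, cover counting error only. Exons of VIM, which kidney lines express, held 88, 81, 28 and 7 tags in Alyref, Chtop, Nxf1 and Control, PAX2 held 10, 9, 1 and 0, and NEFM only 1 in all. Of the markers of other tissues, ALB and PTPRC were near 0, with 1 tag each. HBB held 12 (5 Alyref and 7 Chtop), against 10 and 9 for PAX2 in those groups.

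CPSF1, the large scaffold subunit of CPSF, was the only member whose level was called different between factors, and its calls did not hold under every setting. It lies on chromosome 8 (145618444-145634719, minus strand, 38 exons). The Alyref libraries held 246, 171 and 162 CPM (20, 108 and 98 tags), the Chtop libraries 85.0, 108 and 76.8 CPM (4, 58 and 33 tags), and the Nxf1 libraries 0, 41.9 and 39.0 CPM (0, 5 and 7 tags). Every Alyref library lay above every Chtop library, and every Chtop library above Nxf1 replicates 2 and 3. The 0 tags in Nxf1 replicate 1 allow up to 369 CPM, so it cannot be ranked. How often all genes separate by library in this way was not counted, here or for the genes below. Control gave 143, 42.9 and 27.0 CPM from 1, 2 and 1 tags. CPSF1 was higher in Alyref than in Chtop by 0.90 ± 0.30 on the log2 scale (SE, edgeR quasi-likelihood adjusted p = 0.0317) and higher than in Nxf1 by 1.86 ± 0.45 (SE, edgeR adjusted p = 0.0128). The tag filter let CPSF1 into the test only through its Alyref libraries, the group called higher. With no filter beyond 1 tag the edgeR adjusted p was 0.215 for Alyref against Chtop. With the replicate number as a block, the edgeR adjusted p became 0.0618 for Alyref against Chtop and 0.0137 for Alyref against Nxf1. The first call also ended without Alyref replicate 1, 2 or 3, Chtop replicate 2 or 3, or Nxf1 replicate 1 (edgeR adjusted p = 0.0532 to 0.220), and with DESeq2 (adjusted p = 0.208), and the second without Alyref replicate 2 or 3 or Nxf1 replicate 2 or 3 (edgeR adjusted p = 0.0526 to 0.128).

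The second CPSF member, CPSF2, is a catalytically inactive relative of the endonuclease subunit (chromosome 14, 92588313-92638489, plus strand). It gave 73.8, 71.2 and 84.5 CPM in Alyref and 128, 81.7 and 55.9 CPM in Chtop, overlapping ranges. Nxf1 gave 0, 58.7 and 78.1 CPM from 0, 7 and 14 tags.

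**Figure D1:**
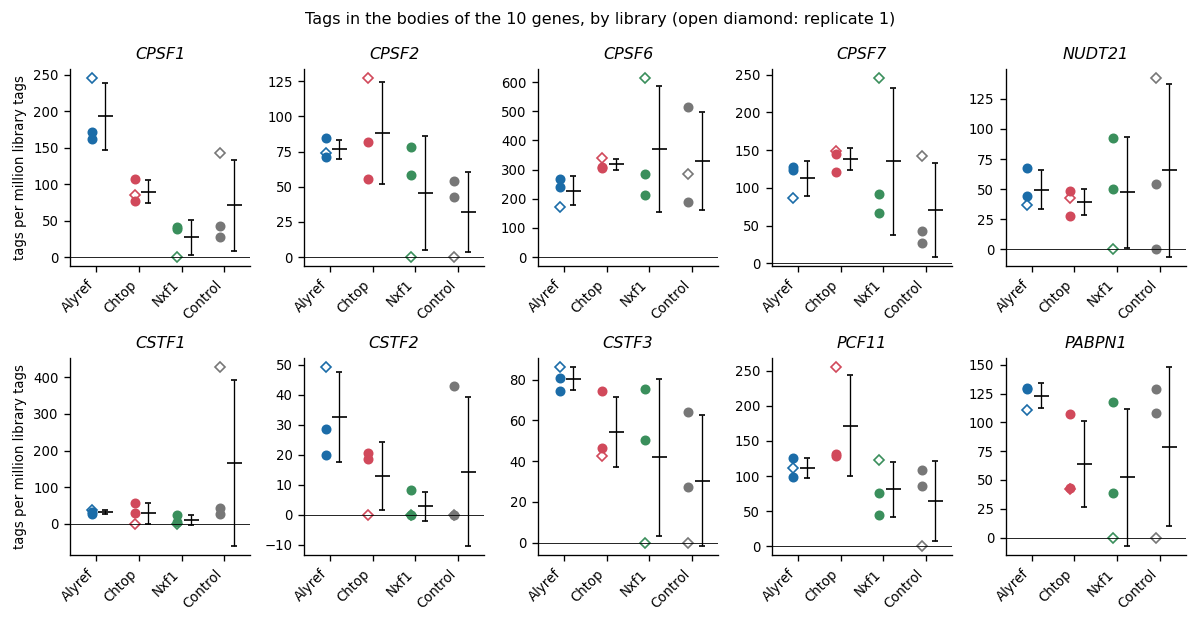
CPM (y axis, linear) for each of the 10 genes in the 4 groups; points are libraries, the open diamond is replicate 1, and the bar with whiskers is the mean ± SD (n = 3). CPSF1 falls from Alyref (162 to 246) to Chtop (76.8 to 108) to Nxf1 (0 to 41.9, the 0 from the shallow replicate 1), while CPSF6 is high in every group, Control included.

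Cleavage factor Im gave the deepest member and a second well covered one. CPSF6, one of its larger subunits (chromosome 12, 69633349-69668138, plus strand), gave 172, 268 and 242 CPM in Alyref, 340, 306 and 307 in Chtop, 615, 285 and 212 in Nxf1, and 285, 515 and 189 in Control. The Chtop libraries all lay above the Alyref libraries, but the difference missed the threshold (log2 -0.49 ± 0.29 SE, edgeR adjusted p = 0.239). In Control, CPSF6 ranked at percentile 99.4 of 19234 protein-coding genes by pooled CPM, and the range of the Control libraries overlapped that of each factor. CPSF7, the alternative subunit to CPSF6 (chromosome 11, 61170113-61197503, minus strand), gave 86.1, 128 and 124 CPM in Alyref and 149, 145 and 121 in Chtop, and 143, 42.9 and 27.0 in Control from 4 tags in all. NUDT21, the UGUA-binding subunit (chromosome 16, 56463045-56486111, minus strand), gave 36.9, 44.3 and 68.0 CPM in Alyref and 42.5, 27.8 and 48.9 in Chtop, with no separation of the groups.

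Of the CSTF genes, CSTF1 and CSTF2 were the sparsest of the 10. CSTF3, the scaffold of the complex (chromosome 11, 33098734-33183917, minus strand), gave 86.1, 80.7 and 74.6 CPM in Alyref and 42.5, 74.2 and 46.6 in Chtop, so the groups did not overlap but the lowest Alyref library was only just above the highest Chtop library. Too few tags passed the filter for a test. CSTF1, its WD-repeat subunit (chromosome 20, 54967427-54981418, plus strand), held 41, 44, 4 and 6 tags in Alyref, Chtop, Nxf1 and Control. CSTF2, the subunit that contacts GU-rich RNA (chromosome X, 100075380-100096509, plus strand), held 34, 19, 1 and 2. Neither gene had enough tags for the test of levels.

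PCF11 (chromosome 11, 82868030-82898493, plus strand) gave 111, 98.1 and 126 CPM in Alyref, 255, 132 and 128 in Chtop, 123, 75.5 and 44.6 in Nxf1 and 0, 85.8 and 108 in Control. On all tags in the body every Chtop library was above every library of the other groups, but the 0 tags in Control replicate 1 allow up to 428 CPM. A non-coding RNA gene shares the strand with part of PCF11, and 288 of its 311 tags lay in PCF11 alone. On those the separation was lost, since Chtop replicates 2 and 3 fell below Nxf1 replicate 1, which rests on 1 tag. Chtop exceeded Nxf1 by 1.00 ± 0.46 on the log2 scale, short of the threshold (SE, edgeR adjusted p = 0.102), but passing it when libraries were scaled by their totals only (1.26, edgeR adjusted p = 0.0462). PABPN1 (chromosome 14, 23790666-23795372, plus strand), which a readthrough gene left out of the counting overlaps, gave 111, 130 and 129 CPM in Alyref against 42.5, 42.7 and 107 in Chtop, without overlap, and 0, 117 and 39.0 in Nxf1. The difference between Alyref and Chtop was 0.76 ± 0.35 on the log2 scale and did not pass (SE, edgeR adjusted p = 0.130), though it did without Chtop replicate 3 (1.49, edgeR adjusted p = 0.0421).

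Since the genes span very different lengths, their levels were compared per kb of canonical exon. In pooled Alyref libraries PABPN1 was densest with 48.2 exonic CPM per kb, followed by CPSF1 with 30.4, CPSF7 with 24.2 and CPSF6 with 18.5. In pooled Chtop libraries the order was CPSF7 with 33.9, CPSF6 with 28.9, PABPN1 with 19.6, CPSF1 with 17.6 and PCF11 with 17.3, and the last 3 lie close together. Over libraries the Chtop values were 18.2 ± 14.4 for PABPN1, 16.4 ± 2.72 for CPSF1 and 23.3 ± 12.1 for PCF11 (SD, n = 3), so these neighbours do not differ beyond their spread. CPSF2 was among the lowest in both, with 4.44 in Alyref and 5.07 in Chtop, spread over the longest exonic sequence of the 10.

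Only 5 of the 10 genes (CPSF1, CPSF6, CPSF7, PCF11 and PABPN1) had enough tags for the gene-level test across 3381 genes. Between Alyref and Chtop 1 of the 5 passed by edgeR, CPSF1, and 0 by DESeq2, against 16.6% of all genes tested by edgeR. The median log2 difference was -0.27 over the 5 and 0.02 over all genes. Between Alyref and Nxf1 1 of 5 passed, again CPSF1, against 4.88% of all genes, with medians of 0.53 and 0.01. Between Chtop and Nxf1 0 of 5 passed by edgeR and 0 by DESeq2, with 1 at an unadjusted p below 0.05, against 26.3% of all genes called. The unadjusted p was below 0.05 for 1330 of the 3381 genes.

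Against Control no member passed. The background was 0.237% of genes called for Alyref, 15% for Chtop and 0% for Nxf1 by edgeR, and DESeq2 called 0 of the 5 in each. At an unadjusted p below 0.05 the counts were 1 (CPSF1, Alyref higher by 1.87 ± 0.66 SE), 1 (CPSF7, Chtop higher by 1.52 ± 0.66 SE) and 0. Over all 3381 genes the counts at that p were 560, 1118 and 271 for Alyref, Chtop and Nxf1.

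**Figure D2:**
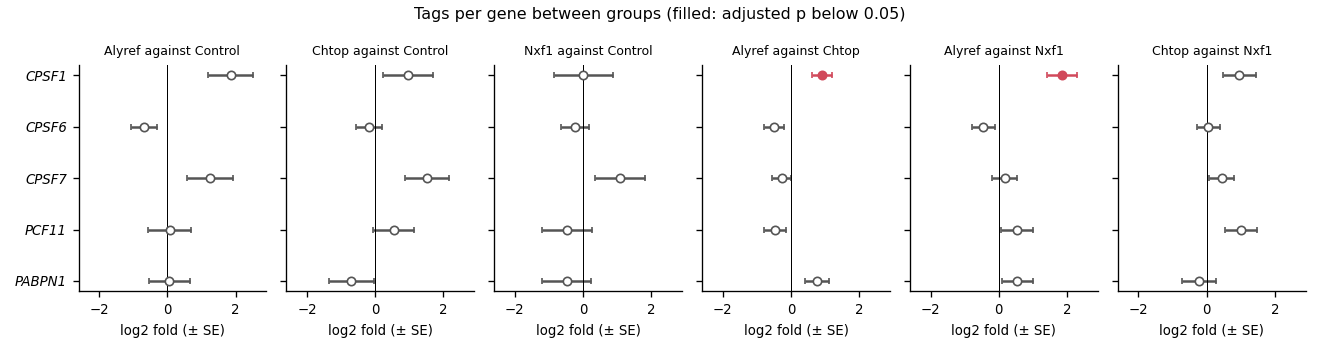
Log2 fold between groups (x axis) with its standard error for the 5 genes tested, from edgeR on tags per gene; filled red points had an adjusted p below 0.05. Only CPSF1 is filled, at 0.90 for Alyref against Chtop and 1.86 for Alyref against Nxf1.

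Of 21 listed partners of the 10 (other CPSF subunits, poly(A) polymerases, phosphatases, termination factors and poly(A)-binding proteins), 11 were tested. Between Alyref and Chtop 1 of 11 passed, against 16.6% of all genes, and between Chtop and Nxf1 3 of 11, against 26.3%. XRN2, the exonuclease that follows the polymerase after cleavage, was higher in Alyref than in Chtop by 1.45 ± 0.31 on the log2 scale (SE, edgeR adjusted p = 0.00147). It was also lower in Chtop than in Nxf1 (-1.21 ± 0.37 SE, edgeR adjusted p = 0.0166), as were SSU72, a phosphatase of the polymerase tail (-1.53 ± 0.46 SE, edgeR adjusted p = 0.0138), and PABPC1, the cytoplasmic poly(A)-binding protein (-1.03 ± 0.36 SE, edgeR adjusted p = 0.0350). Both comparisons use the same Chtop libraries. Without its Nxf1 libraries, the group called higher, SSU72 would not have passed the tag filter. These partner calls were not checked with DESeq2, with the replicate block or with libraries left out. In Alyref against Nxf1 and in the comparisons with Control, 0 of 11 passed by edgeR, with 2 at an unadjusted p below 0.05 in Chtop against Control and 0 in the others. In Chtop against Control 1118 of all 3381 genes were below that p.

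The part of the gene that held the tags differed from gene to gene. CPSF1 tags lay mainly in coding sequence, which held 75.2% of its Alyref tags (interval 69.2 to 80.4, 226 tags) and 77.9% of its Chtop tags (interval 68.6 to 85.1, 95 tags). Its 3′ UTR has only 87 nt. In CPSF7 the 3′ UTR held 35% of Alyref tags (interval 28.0 to 42.7) and 67.7% of Chtop tags (interval 59.3 to 75.03). CSTF3 was mainly intronic in both, at 67.0% of Alyref tags (interval 57.4 to 75.3) and 65.0% of Chtop tags (interval 52.4 to 75.8). CPSF6 had 51.4% of Alyref tags in introns (interval 46.0 to 56.7) and 38.3% of Chtop tags (interval 33.1 to 43.8).

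**Figure D3:**
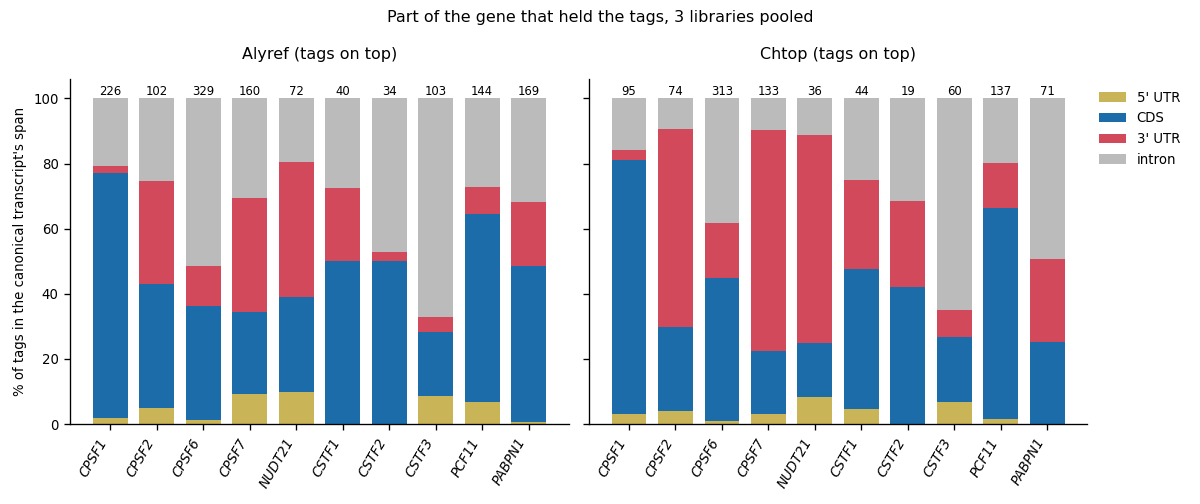
Share of tags (y axis, percent) in 5′ UTR, CDS, 3′ UTR and intron of each gene's canonical transcript, 3 libraries pooled, for Alyref (left) and Chtop (right), with the number of tags on top. The 3′ UTR share of CPSF7 goes from 35% in Alyref to 67.7% in Chtop, and CSTF3 is mostly intronic in both.

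Summed over the 10 genes, the 3′ UTR held 13.3% ± 6.24 (SD, n = 3) of Alyref tags and 29.5% ± 3.46 (SD, n = 3) of Chtop tags. In all other protein-coding genes the shares were 15.5% ± 1.29 and 30.7% ± 5.10 (SD, n = 3). By library the members gave 6.10%, 17.4% and 16.4% for Alyref and 33.3%, 26.6% and 28.8% for Chtop, so the groups did not overlap. The sparse Nxf1 and Control libraries gave 34.3% ± 13.7 and 26.4% ± 12.1 (SD, n = 3), where the other genes had 20.1% ± 8.20 and 10.5% ± 3.39. Of the 24 Control tags in member 3′ UTRs, 13 were in CPSF6.

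Introns held 35.7% ± 3.31 (SD, n = 3) of the members' Alyref tags and 29.3% ± 6.10 (SD, n = 3) of their Chtop tags, against 45.6% ± 4.74 and 32.4% ± 8.27 in the other genes. In each Alyref library the members' intron share was below that of the other genes (35.4% against 41.2%, 32.6% against 44.9%, 39.2% against 50.6%). The same held in every Chtop, Nxf1 and Control library. Control gave 50.5% ± 11.3 for the members and 72.4% ± 15.1 (SD, n = 3) for the others. Coding sequence held 47.4% ± 7.95 of the members' Alyref tags against 34.5% ± 3.20 elsewhere. The mean was also higher in the members in Chtop (38.3% ± 8.45 against 33.3% ± 2.87), Nxf1 (33.0% ± 15.1 against 21.8% ± 9.32) and Control (23.1% ± 23.3 against 15.0% ± 10.5).

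The balance of intron and exon was testable in all 10 genes among 7964. It differed for 1 of them in 1 comparison. CPSF7 had 1, 4 and 8 intron tags beside 6, 71 and 43 exon tags in the Chtop libraries, and 0, 3 and 8 beside 2, 8 and 4 in the Nxf1 libraries. Its intron to exon ratio was lower in Chtop than in Nxf1 (log2 -2.67 ± 1.02 SE, edgeR adjusted p = 0.0468), where 19.8% of all genes were called. Of the 10 members 9 had the lower ratio in Chtop, with a median of -1.62 against -2.00 over all genes. The call ended in the replicate block (edgeR adjusted p = 0.121), with DESeq2 (adjusted p = 0.0701), and without any of Alyref replicates 1, 2 and 3, Chtop replicate 2 or Nxf1 replicate 3 (edgeR adjusted p = 0.0504 to 0.627, log2 -1.33 without the last).

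In the other comparisons of intron and exon 0 of 10 members passed by edgeR or DESeq2. The background called was 0.301% for Alyref against Chtop, 0.414% for Alyref against Nxf1, 0.151% for Alyref against Control, 11.7% for Chtop against Control and 0% for Nxf1 against Control. At an unadjusted p below 0.05 the members numbered 1, 0, 0, 1 and 0. Over all 7964 genes the numbers were 1416, 1286, 1168, 2412 and 356. The ratio was higher in Alyref than in Chtop in 9 of 10 members, with a median of 0.74 where all genes had 0.94. PABPN1 was the exception.

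The ratio of 3′ UTR to CDS tags was testable in 7 members (CPSF2, CPSF6, CPSF7, CSTF1, NUDT21, PCF11 and PABPN1) among 5105 genes. Between Alyref and Chtop 0 of 7 passed by edgeR, with 2 at an unadjusted p below 0.05, and 0 by DESeq2, where 27% of all genes were called. The unadjusted p was below 0.05 for 2036 of the 5105 genes. All 7 had the lower ratio in Alyref, with a median of -1.27 against -1.21 over all genes. Nearest to the threshold were CPSF2 (log2 -1.55 ± 0.65 SE, edgeR adjusted p = 0.0600) and CPSF7 (log2 -1.32 ± 0.57 SE, edgeR adjusted p = 0.0666). CPSF7 passed when all annotated isoforms were merged (edgeR adjusted p = 0.0234), and CPSF2 when each base was counted once (edgeR adjusted p = 0.0452).

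CPSF6 stood nearest in Alyref against Nxf1. Its Alyref libraries held 1, 23 and 17 tags in the 3′ UTR beside 5, 72 and 38 in CDS, while the Nxf1 libraries held 2, 10 and 14 beside 3, 7 and 6. The log2 difference was -2.15 ± 0.63 (SE, edgeR adjusted p = 0.0955), where 0.451% of all genes were called, and it passed without replicate 1 of every group (edgeR adjusted p = 0.0437). Control had 0, 9 and 4 tags in that 3′ UTR and 2, 1 and 0 in CDS, and 5 of the 13 Control tags in the 3′ UTR lay on a single base. Against Control 0 of 7 members passed for any factor by edgeR or DESeq2. The background was 0% of 5105 genes by edgeR, with 145, 127 and 127 genes, and 2, 1 and 1 members, at an unadjusted p below 0.05 for Alyref, Chtop and Nxf1. In Alyref against Nxf1 and in Chtop against Nxf1 0 of 7 passed by edgeR or DESeq2, with 1 member each at an unadjusted p below 0.05, and in the latter 0.313% of all genes were called. Over all 5105 genes 568 and 452 were below that p.

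Intronic tags were concentrated in a few introns. The last intron of CPSF6 (intron 9 of 9, 6949 nt, chromosome 12, 69656343-69663291) held 7, 42 and 48 tags in Alyref, 6, 48 and 29 in Chtop, 0, 9 and 7 in Nxf1 and 0, 10 and 2 in Control. Its pooled density was 10.6 CPM per kb in Alyref and 11.8 in Chtop, against 2.46 and 1.81 in the longer intron 1, and it was 19.1 in Control. The short intron 5 (684 nt) was as dense, with 14.4 in Alyref from 13 tags and 10.1 in Chtop from 7. Over the 9 factor libraries the density of intron 9 was 4.68 times that of the gene's other introns. For last introns this was percentile 89.99 among 1719 other protein-coding genes with at least 50 intron tags, whose median ratio was 1.29.

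PABPN1 was more uneven still. Its last intron (intron 6 of 6, 957 nt, chromosome 14, 23793499-23794455), the one known to be retained, held 2, 21 and 24 tags in Alyref, 1, 12 and 19 in Chtop, 0, 4 and 4 in Nxf1 and 0, 2 and 4 in Control. It took 27.8% of all Alyref tags of the gene and 45.1% of the Chtop tags. The ratio of densities was 13.6, percentile 98.8. Pooled Control density there was 69.2 CPM per kb from 6 tags, against 37.3 in Alyref and 32.9 in Chtop, so the pooled density of both was below that of the FLAG-only cells.

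**Figure D4:**
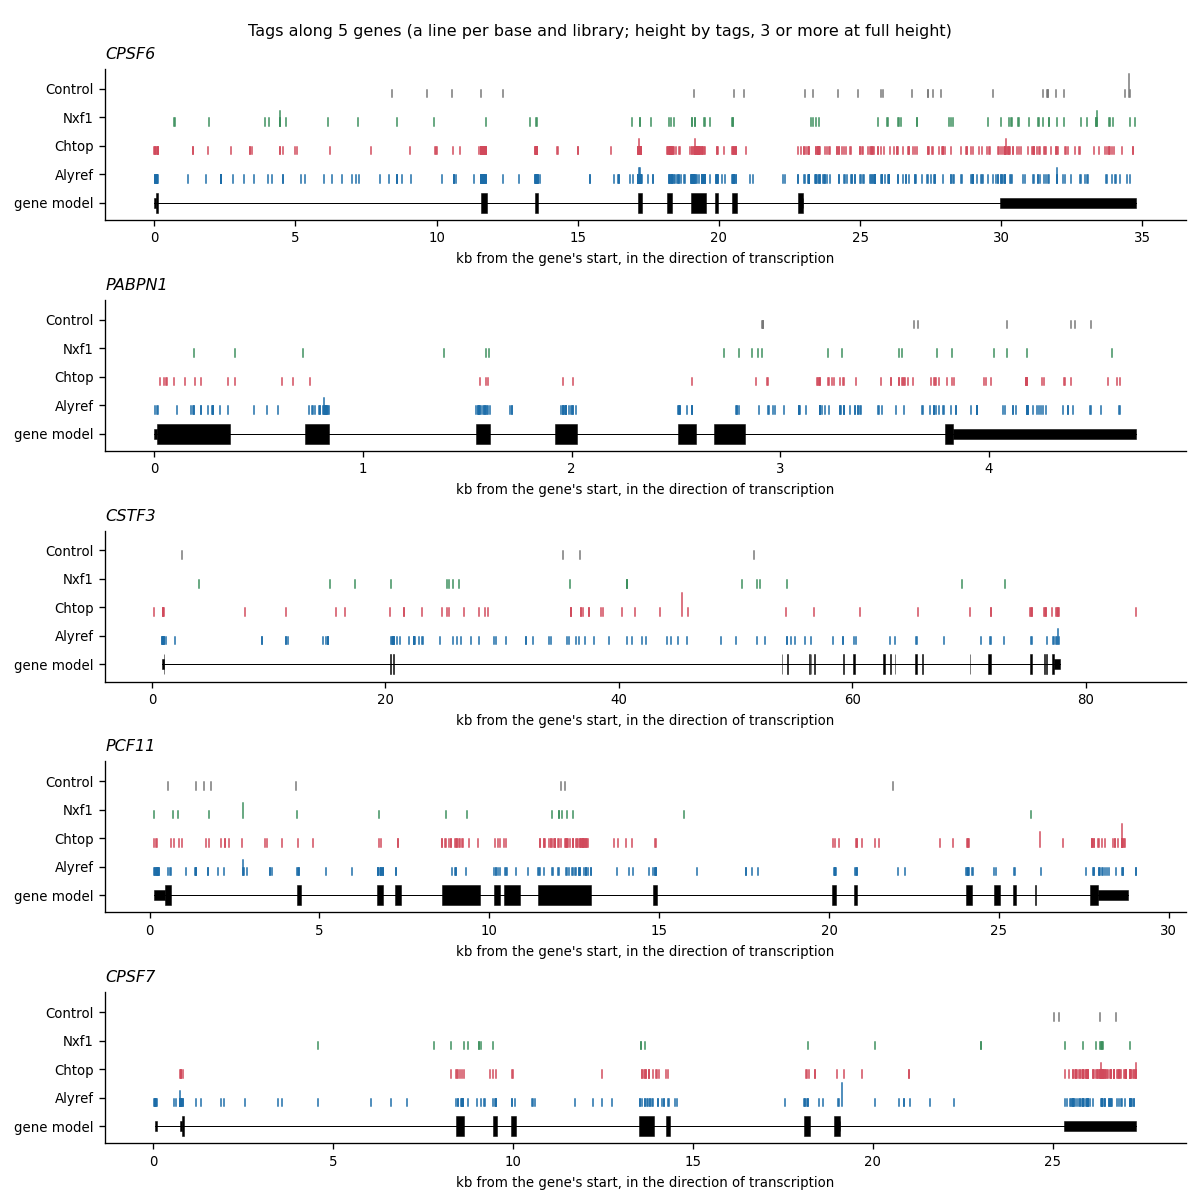
Tags along 5 of the genes (x axis, kb from the gene's start in the direction of transcription); each line is a base in a library, coloured by group, with its height by tags up to 3, above the canonical exons (tall boxes CDS, low boxes UTR). The last introns of CPSF6 and PABPN1 are filled, CSTF3 intron 3 has tags spread along its length, and the Chtop tags of CPSF7 gather in the 3′ UTR.

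The introns known for premature polyadenylation held fewer tags per kb than these. CSTF3 intron 3 (33248 nt, chromosome 11, 33129965-33163212) held 45.6% of the gene's Alyref tags (4, 24 and 19 by library) and 48.4% of its Chtop tags (1, 26 and 3). Per kb it was sparse beside those last introns, with 1.07 CPM per kb in Alyref, 0.889 in Chtop, 1.08 in Nxf1 and 0.996 in Control. Over all introns of CSTF3 the densities were lower, at 0.708, 0.518, 0.704 and 0.596. Annotated coding transcripts end inside intron 3 at positions 33162512 and 33163011, and the 200 nt before these ends held 1 and 3 Alyref tags and none from the other groups. PCF11 intron 1 (3695 nt, chromosome 11, 82868674-82872368) held 2, 13 and 3 Alyref tags, 1, 6 and 6 Chtop tags, 0, 3 and 3 Nxf1 tags and 0, 3 and 1 Control tags. Its share of the gene's tags was 12.2% in Alyref, 9.42% in Chtop, 33.3% in Nxf1 and 50% in Control, the last from 4 tags. The pooled density there was 3.70, 3.46, 5.29 and 11.9 CPM per kb in that order, against 1.32, 1.19, 1.16 and 2.46 over all introns of PCF11.

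Of the single introns 10 from 6 members had enough tags to test against the rest of their gene, among 9292 introns, and 0 passed in any comparison by edgeR. The background called was 6.03% for Chtop against Nxf1, 2.34% for Chtop against Control, 0.28% for Alyref against Chtop, 0.269% for Alyref against Nxf1, 0.183% for Alyref against Control and 0% for Nxf1 against Control, where 534 introns had an unadjusted p below 0.05. At that p the member introns numbered 3, 2, 0, 1, 2 and 0 in that order. Over all 9292 introns the numbers were 1993, 1392, 1290, 903, 696 and 534. Nearest to the threshold was CPSF1 intron 2, named after its values were seen (Chtop below Nxf1, log2 -3.37 ± 1.37 SE, edgeR adjusted p = 0.119). CPSF7 intron 9 was lower in Chtop than in Control by log2 -4.90 ± 1.97 (SE, edgeR adjusted p = 0.166), with 4 Chtop and 2 Control tags. The others named here are PCF11 intron 1 (Chtop below Control, log2 -3.21 ± 1.36 SE, edgeR adjusted p = 0.196) and, chosen after its values were seen, CPSF6 intron 1 (Chtop below Nxf1, log2 -1.69 ± 0.77 SE, edgeR adjusted p = 0.174). The latter passed without Chtop replicate 2 (log2 -2.89, edgeR adjusted p = 0.0271). In the remaining genes the intron with most tags was intron 26 of CPSF1 (29 factor tags, 24 of them Alyref), intron 9 of CPSF7 (18), intron 1 of CPSF2 (13), intron 2 of CSTF1 (12), intron 4 of NUDT21 (9) and intron 8 of CSTF2 (7).

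Within the 3′ UTRs the position of the tags differed from gene to gene. CPSF2 has the longest, 10401 nt, and 4 equal stretches of it from the stop codon on held 21, 5, 6 and 0 Alyref tags and 32, 4, 0 and 9 Chtop tags, so both were densest near the coding end. In CPSF6 (4847 nt in the last exon) the 4 stretches held 14, 13, 6 and 8 Alyref tags and 24, 13, 6 and 10 Chtop tags. In CPSF7 (1976 nt) the 4 stretches held 11, 22, 35 and 22 Chtop tags and 15, 13, 16 and 12 Alyref tags. PABPN1 held 7, 16, 6 and 4 Alyref tags. PCF11 (900 nt) went the other way with Chtop, at 4, 1, 3 and 11 tags, and NUDT21 (3579 nt) held 6, 4, 10 and 10 Alyref tags. In the 9 members with a 3′ UTR of at least 500 nt, the last 100 nt held 7 of 219 Alyref tags (3.20%, interval 1.56 to 6.45) and 8 of 270 Chtop tags (2.96%, interval 1.51 to 5.74). Over 13147 other genes it was 3.50% and 3.10%.

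**Figure D5:**
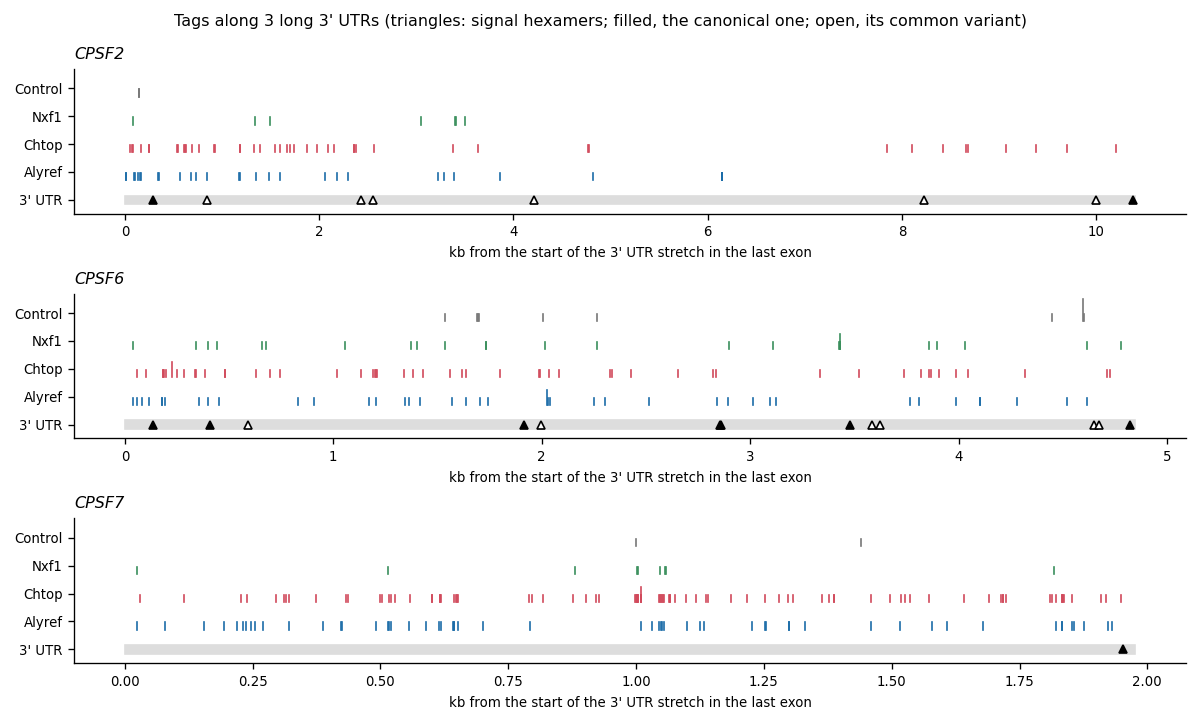
Tags along the 3′ UTRs of CPSF2, CPSF6 and CPSF7 (x axis, kb from the start of the 3′ UTR in the last exon), a line per base and library with its height by tags up to 3; triangles mark polyadenylation signal hexamers, filled for the canonical one. CPSF2 tags lie mostly in the first of 4 equal stretches (21 of 32 for Alyref and 32 of 45 for Chtop), while CPSF7 has its only hexamer at the very end.

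The AAUAAA signal, which CPSF recognises, is present in most of these transcripts. AATAAA lay within 50 nt of the annotated end in 9 of 10 members (searched on the gene's strand), and in 66.2% of 18510 other protein-coding genes, with ATTAAA alone in a further 14.5%. No AATAAA or ATTAAA was found in the 3′ UTR of CPSF1. The ends are shown, as RNA from GRCh37 on the gene's strand, with the hexamer farthest from the end in capitals:
CPSF2 (chr14:92638464-92638489, plus): ugugaAAUAAAcagauucugaagguc
CPSF6 (chr12:69668111-69668138, plus): uugaaAAUAAAacaaacuuuugauaaga
CPSF7 (chr11:61170201-61170228, minus): uguguAAUAAAcuugaugacgcugucaa
NUDT21 (chr16:56463045-56463072, minus): auuucAAUAAAaaauauuugaaagagaa
CSTF1 (chr20:54981393-54981418, plus): ucugaAAUAAAcuuuauauacaauga
CSTF2 (chrX:100096482-100096509, plus): gaugaAAUAAAaacagaaaucaaaugaa
CSTF3 (chr11:33106130-33106154, minus): uaaaaAAUAAAaggauucagaaaca
PCF11 (chr11:82896810-82896836, plus): cauguAAUAAAuagaaugaugaagaaa
PABPN1 (chr14:23795342-23795371, plus): ucaugAAUAAAguuguuuuugaaaauaaaa

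PABPN1 has a second AAUAAA 2 nt from its end, left in lower case. Tags near these end signals were few. Of the 44 hexamers in the members' 3′ UTRs (23 AATAAA and 21 ATTAAA), 19 had an Alyref tag within 50 nt, 20 a Chtop tag, 10 an Nxf1 tag and 2 a Control tag, and 16 had none of any group. Of the 10 hexamers within 50 nt of an annotated end, 2 had a tag. The CPSF7 signal had 2 Alyref and 7 Chtop tags within 50 nt, the highest Chtop count of any, and the CPSF6 signal had 1 Nxf1 tag. An ATTAAA 61 nt into the 3′ UTR of PABPN1 had 7 Alyref tags and none from Chtop, Nxf1 or Control.

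Few bases were used by more than 1 library. The 2672 tags fell on 2492 bases, of which 132 were seen in at least 2 libraries and 88 in at least 2 groups. CPSF6 had 44 such bases out of 690, PABPN1 25 of 243 and CPSF7 23 of 297, but CSTF1 only 1 of 92. The base with most factor tags among those in at least 2 libraries is shown for the members where it had at least 3, with 10 nt on each side as RNA from GRCh37 and the crosslinked base in capitals:
CPSF6, CDS (chr12:69650502-69650522, plus): gaagcaucuuCaaaaaaguua
CPSF7, 3′ UTR (chr11:61170332-61170352, minus): augacaccauUuuuaguuuua
PABPN1, CDS (chr14:23791469-23791489, plus): agaagcagauGaauaugaguc
The CPSF6 base had 2 tags in Alyref 3 and 2 in Chtop 3. The CPSF7 base had 1 tag each in Alyref 2, Chtop 2 and Chtop 3. The PABPN1 base had 2 tags in Alyref 2 and 1 in Alyref 3.

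Uridines in the last introns and in a 3′ UTR tied in factor tags with the base shown for their gene, and came after it only by coordinate. They were chosen after their values were seen and are shown in the same way:
CPSF6, intron 9 (chr12:69656765-69656785, plus): acuaguuuuaUuugucccuaa
PABPN1, intron 6 (chr14:23793848-23793868, plus): uguuacuuuuUucggaguuag
PABPN1, 3′ UTR (chr14:23794837-23794857, plus): uaggagguuuUuuuuuuuacc
The CPSF6 base was used once each by Alyref 3, Chtop 2, Chtop 3 and Nxf1 2. The PABPN1 intron base was used by Alyref 2, Alyref 3 and Chtop 2, and the PABPN1 3′ UTR base by Alyref 2, Chtop 3 and Nxf1 2. Control had no tag at any of the 6. In CPSF2, NUDT21, CSTF2, CSTF3, PCF11 and CPSF1 the leading base had 2 factor tags, and in CSTF1 it had 1, with a Control tag at the same position.

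Over all tags in the 10 genes uridine was the crosslinked base for 51.2% ± 5.30 (SD, n = 3) in the Alyref libraries and 56.4% ± 5.58 in the Chtop libraries. The Nxf1 libraries gave 57.8% ± 7.08 and the Control libraries 65.0% ± 20.4, and these ranges overlap. In the other protein-coding genes it was 54.8% ± 1.33, 54.8% ± 3.38, 52.1% ± 6.47 and 52.9% ± 6.01.

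At 64 internal exon junctions of the members with at least 100 nt of exon on both sides, the stretch from -75 to -24 nt held 27.3% of Alyref tags (interval 23.1 to 31.9, 396 tags) and 29.96% of Chtop tags (interval 24.6 to 35.9, 247 tags). Over 72454 junctions of other genes it was 29.6% for Alyref and 25.2% for Chtop. In the 10 genes the intervals of the factors overlapped.

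First and last exons were set side by side in PCF11, CPSF6 and PABPN1, chosen after their values were seen. PCF11 had 13 Alyref tags in its first exon of 501 nt and 15 in its last of 1116 nt, against 3 and 24 for Chtop, so the log2 ratio of last to first density was -0.95 in Alyref and 1.84 in Chtop. CPSF6 had 11 and 41 Alyref tags and 8 and 53 Chtop tags, with log2 ratios of -3.24 and -2.41, and PABPN1 had 17 and 34 against 9 and 20, with -0.33 and -0.18. The first exon was the denser in all of these but PCF11 with Chtop. Among the other members, Chtop held 0 first-exon tags in CPSF7, CPSF2, CSTF1 and CSTF2, beside 90, 45, 13 and 5 in the last exon. Their first exons have only 62, 160, 69 and 84 nt, against 1976, 10494, 2895 and 807 nt for the last. With 0 tags in such short exons, the densities cannot be ranked. In CPSF1, NUDT21 and CSTF3 the first exon was the denser with Chtop. Counts of this size were not tested.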

How the data were processed

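The deposited values are counts: for every library the authors gave the deduplicated reads assigned to single bases, strand by strand. By the study's methods, phiX reads were removed with Bowtie 1.1.2, reads were mapped to hg19 with STAR 2.4.2a, lanes were merged and PCR duplicates were collapsed with UMI-tools 0.5.3. The 32 lane runs form 12 libraries, and 0 columns of per-sample values were left unused.

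Tags were placed on a GENCODE annotation mapped to GRCh37, and 0 lay beyond a chromosome end. Tags in exactly 1 gene, readthrough genes left out, entered the gene test. Parts, introns and levels used every tag in the body and the canonical transcript. edgeR 4.0.16 (quasi-likelihood F-test, TMM, filterByExpr, all libraries, Benjamini-Hochberg over all features) gave the tests. Ratios of 2 parts were fitted with a term per library and part by group, for at least 50 tags in both parts and 10 in each, or 20 for an intron and for the rest. DESeq2 1.42.0 was an alternative. The functions were tested on simulated data.

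Named were all 10 members, up to 3 called partners per direction, PCF11 intron 1, CSTF3 intron 3, the last intron of PABPN1, the intron with most tags in each member, and in each member the base with most factor tags that at least 2 libraries used (ties by lower coordinate). Members and lists were chosen with earlier results of these data known.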

Additional observations from a re-analysis of the deposited data

How the results depend on the processing

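Each of the 3 calls of a member was lost under several settings, and no named result of a member reversed. The calls of partners were not checked under these settings. For tags per gene, Alyref against Chtop had 1 member called and 0 with DESeq2, with no filter beyond 1 tag and with the replicate block, and 0 to 1 when single libraries or replicate 1 of every group were left out. Alyref against Nxf1 had 1, and 0 to 1 when libraries were left out, and DESeq2 gave CPSF1 no adjusted p there. Chtop against Nxf1 had 0, and 1 (PCF11) with library totals only. For intron against exon, Chtop against Nxf1 had 1, and 0 with DESeq2, with the looser tag minimum and with the replicate block, and 0 to 1 when libraries were left out. With all isoforms merged the count stayed at 1 but the gene was CPSF1. For 3′ UTR against CDS, Alyref against Chtop had 0, but 1 (CPSF2) with distinct bases and 2 (CPSF7 and PABPN1) with all isoforms merged, and Alyref against Nxf1 had 0 to 1 when libraries were left out. For single introns, Chtop against Nxf1 had 0, but 1 (CPSF7 intron 3) with introns of 10 tags or more, and 0 to 1 when libraries were left out. The causes were not tested.

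The intron share of the members fell with all isoforms merged, to 27.2% in Alyref and 22.5% in Chtop, since sequence exonic in any isoform then leaves the introns. Without CPSF6 it was 30.9% and 22.9%. The Chtop 3′ UTR share was 36.9% without CPSF6 and 24.1% without CPSF7.

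Libraries with the same replicate number deviated together in part (r from -0.18 to 0.25 over 18 pairs, median 0.039, 6 above 0.1). Over 36 pairs with different numbers r ran from -0.28 to 0.23, with a median of -0.012 and 2 above 0.1. Of 12 libraries 8 were nearest to their own number. The main fits left the numbers out, and the replicate block is given as an alternative. Among calls of members, the replicate block changed the 2 named above and no other. Depth limits most results: 5 members could not be tested at gene level, and Nxf1 and Control held 217 and 78 member tags.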

Other observations

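Tags on the opposite strand of the 10 genes were rare except in 3 of them. CSTF3, which has 3 annotated genes on the other strand, held 11 Alyref, 17 Chtop, 6 Nxf1 and 2 Control tags there, against 103, 62, 18 and 4 on its own strand. NUDT21 held 8, 7, 0 and 0, and PCF11 6, 1, 0 and 0. In PABPN1, which has no annotated gene opposite, 1 Alyref and 2 Chtop tags lay on the other strand against 169 and 71 on its own.

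Short annotated transcripts that end inside an intron mostly held few tags before their ends. The highest count was 16 Alyref and 2 Chtop tags, in the 200 nt before an end at the very start of PABPN1 intron 4. That window covers exon 4, so such counts can include exon tags. In CPSF1 the 200 nt before such an end in intron 26 held 9 Alyref tags and 1 Chtop tag, and none from Nxf1 or Control.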
